A study of Mus musculus with 8 samples.

Results

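The 10 immediate early genes Fos, Fosb, Jun, Junb, Egr1, Nr4a1, Arc, Ier2, Dusp1 and Btg2 were followed by name in the hypothalamus of mice that gained much or little weight on a high-fat diet. Each gene was read by 1 probe that names it alone, so 10 of the 14411 probes naming 1 gene were used, on an array of 33012 probes. Both groups were male C57BL/6J mice fed in the same way, with 6 weeks of the high-fat diet D12331, then 2 weeks of low-fat diet, then 6 more weeks of the high-fat diet, so no group without high-fat feeding enters the comparison. Per the study's methods the mice were housed singly, the high-fat feeding began in young adults, and intake was restricted in the low-fat weeks. Hypothalamic RNA of 20 high gainers was combined into 1 pool and RNA of 20 low gainers into another. Each pool was read on 4 arrays, H1 to H4 for the high gainers and L1 to L4 for the low gainers. The arrays are technical repeats of 1 pool, so every SD, interval and p-value below measures the spread between arrays and holds no spread between mice.

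Immediate early genes are transcribed within minutes of a stimulus, without new protein being made first, because the factors that switch them on are already in the cell. In neurons, calcium entry and cyclic AMP reach their promoters through kinases that act on CREB and on serum response factor, which is why Fos mRNA is widely used to mark recently active neurons. The messages are short-lived, so a level measured in frozen tissue reflects the last part of an animal's life, including feeding, handling and the time of day. How long passed between handling and freezing is not stated in the labels or methods.

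The cyclic AMP response element, the site to which CREB binds, is one route by which such signals reach these genes, so the start-site windows were searched for its letters. RefSeq windows of GRCm38.p6, each holding 250 bases before and 50 bases after a start site, were matched for 7 of the 10 genes. Arc, Egr1 and Ier2 have no window shown. The core TGACG, searched on both strands, stood in 6 of the 7 windows and in 20.8% of all 32851 windows. The full palindrome TGACGTCA, which contains the core and reads the same on both strands, stood in 2 of the 7 windows and in 1.79% of all windows. The Jun window held neither. For the 6 genes with a match, 30 bases are given around the palindrome where there is one, and otherwise around the core nearest before the start site. They run 5′ to 3′ on each gene's own strand with the matched letters in capitals, and show the shared core in genes of different function.
Fos, chr12:85473812-85473841, plus strand: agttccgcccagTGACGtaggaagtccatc
Fosb, chr7:19310088-19310117, minus strand: tggagttgcgggTGACGcaagcgcgggggc
Junb, chr8:84978837-84978866, minus strand: gcttcctgacagTGACGcgagccgcctcct
Nr4a1, chr15:101266794-101266823, plus strand: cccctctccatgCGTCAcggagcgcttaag
Dusp1, chr17:26508597-26508626, minus strand: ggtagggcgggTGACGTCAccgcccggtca
Btg2, chr1:134079303-134079332, minus strand: gttcccaataaTGACGTCAgtgagcgatga
The Nr4a1 match lies on the opposite strand, so its capitals read as the reverse complement of the core. The match shown begins 66 bases before the start site in Fos, 60 in Fosb, 106 in Junb, 40 in Nr4a1, 143 in Dusp1 and 166 in Btg2. A match of letters is a description of the window, and binding was not measured in these arrays.

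The quantities below are the deposited array intensities, on a linear scale without a unit, and differences between the pools were tested on log2 intensities with limma. Of the 8 arrays, 7 resembled each other, with Pearson correlations of 0.945 to 0.983 over probes. L2 correlated with the other arrays at 0.228 to 0.253, so its values are given apart and the tests below use the other 7 unless L2 is named. The 8 arrays had values for 13657 to 16873 probes, with median intensities of 0.714 to 1.049. A total of 11169 probes, 33.8% of all, had a value on each of the 7 arrays and were tested.

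All 10 immediate early genes had a value on each of the 7 arrays, beside 43.9% of the probes naming 1 gene. None of the 10 differed between the pools by limma, with Benjamini-Hochberg adjusted p-values between 0.779 and 0.997 over all tested probes. An adjusted p under 0.05 was reached by 3 probes of 11169, or 0.0269%, so a count of 0 among 10 genes is near this background. At an unadjusted p under 0.05, 0 of the 10 genes passed, beside 6.48% of all tested probes. With an unadjusted p under 0.01 and a change of 1.5-fold, the thresholds in the study's methods, 0 of the 10 passed, beside 1.03% of all. The intensities of the 2 pools overlapped in all 10 genes. Over all tested probes, every high gainer array lay above every low gainer array in 2.07%, and every low gainer array lay above every high gainer array in 2.7%. The log2 difference, high minus low gainers, was above 0 in 5 genes and below 0 in 5, where 49.6% of all probes lay above 0. Its median was -0.04, beside -0.00 over all probes. The median size of the difference was 0.09 on the log2 scale for these genes and 0.17 for all probes.

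Fos encodes a leucine zipper protein that joins a Jun protein to form the transcription factor AP-1. Its intensity was 2.74, 2.55, 2.87 and 3.17 on H1 to H4, and 2.53, 3.26 and 3.27 on L1, L3 and L4. The low gainer arrays held both the lowest and the highest of these values, so the groups overlapped throughout. The means were 2.83 ± 0.259 (SD, n = 4) in high gainers and 3.02 ± 0.423 (SD, n = 3) in low gainers, a log2 difference of -0.08 with a 95% interval of -0.47 to 0.30. As a ratio, the Fos interval ran from 0.722 to 1.24, with an adjusted p of 0.958.

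Fosb encodes a close relative of Fos, whose stable short form builds up in neurons after repeated stimulation. The probe was dim, at 0.250, 0.323, 0.393 and 0.187 on H1 to H4 and 0.321, 0.286 and 0.267 on L1, L3 and L4, where 10% of all deposited values lie under 0.186. All 3 low gainer values fell inside the range of the high gainer arrays. Fosb averaged 0.288 ± 0.0894 (SD, n = 4) in high gainers and 0.291 ± 0.0276 (SD, n = 3) in low gainers, and its log2 difference was -0.16 with a 95% interval of -0.80 to 0.48 (adjusted p = 0.950).

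Jun encodes the partner that Fos proteins need in AP-1. Its intensity on H1 to H4 was 5.19, 5.095, 7.21 and 6.41, and on L1, L3 and L4 it was 6.83, 6.06 and 4.98. The highest value stood in a high gainer array and the lowest in a low gainer array. The Jun means, 5.97 ± 1.02 (SD, n = 4) in high gainers and 5.96 ± 0.928 (SD, n = 3) in low gainers, gave a log2 difference of 0.01 with a 95% interval of -0.38 to 0.40 (adjusted p = 0.997).

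Junb encodes another Jun protein, a weaker activator that can oppose Jun. Its probe was the least even of the 10, with 0.236, 0.139, 0.216 and 0.216 on H1 to H4 and 0.297, 0.615 and 0.167 on L1, L3 and L4. L1 and L3 lay above all high gainer arrays, whereas L4 lay below 3 of them. The mean intensity was 0.202 ± 0.0430 (SD, n = 4) in high gainers and 0.360 ± 0.230 (SD, n = 3) in low gainers. The log2 difference, -0.79 with a 95% interval of -1.67 to 0.08, was the farthest from 0 among the 10 genes and did not pass the test (unadjusted p = 0.0717, adjusted p = 0.779). In size it stood at the 98.8th percentile of all tested probes, and the residual SD of Junb between arrays, 0.69 on the log2 scale, stood at the 98.2nd percentile. The Junb value rested on single low gainer arrays. Without L3 the log2 difference was -0.30. Without L4 it was -1.22, with an unadjusted p of 0.00629 and an adjusted p of 0.348, and both remaining low gainer arrays then lay above all 4 high gainer arrays, as was so for 7.14% of all probes in that direction.

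**Figure D1:**
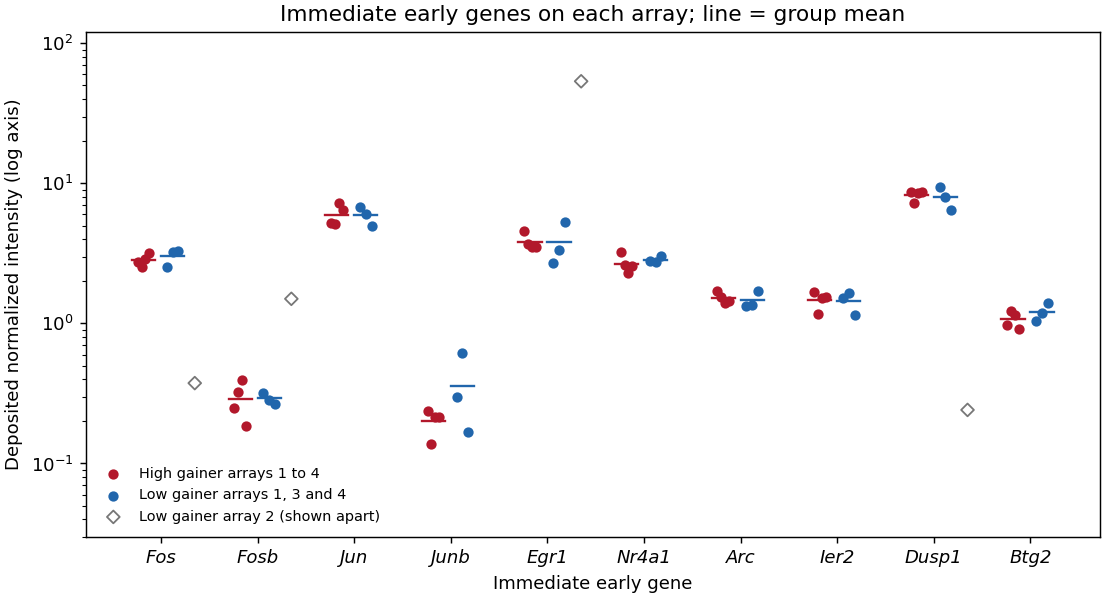
Deposited intensity, on a log axis, of each of the 10 immediate early genes on every array. High gainer arrays H1 to H4, low gainer arrays L1, L3 and L4, and L2 as diamonds where it has a value, with bars for the group means over 4 and 3 arrays. The high and low gainer arrays overlap in each gene, and L2 lies far from the other arrays in Fos, Fosb, Egr1 and Dusp1. Heights of different genes come from different probes and are not comparable.

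Egr1 encodes a zinc finger factor induced by growth factors and by synaptic activity. Intensities were 4.57, 3.69, 3.54 and 3.54 on H1 to H4, and 2.72, 3.34 and 5.33 on L1, L3 and L4. The low gainer arrays spanned 1.96-fold and enclosed all 4 high gainer arrays, which spanned 1.29-fold. Egr1 averaged 3.84 ± 0.498 (SD, n = 4) in high gainers and 3.80 ± 1.36 (SD, n = 3) in low gainers, with a log2 difference of 0.07 and a 95% interval of -0.40 to 0.54 (adjusted p = 0.972).

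Nr4a1 encodes an orphan nuclear receptor that is regulated mainly through its own transcription. Its intensity was 3.21, 2.61, 2.30 and 2.56 on H1 to H4 and 2.80, 2.75 and 3.02 on L1, L3 and L4. The 3 low gainer arrays agreed within 1.10-fold and lay between the highest and the second highest high gainer array. The means were 2.67 ± 0.387 (SD, n = 4) and 2.86 ± 0.142 (SD, n = 3), and the log2 difference was -0.11 with a 95% interval of -0.49 to 0.27 (adjusted p = 0.940).

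Btg2 encodes an antiproliferative protein that acts in mRNA turnover. Its intensity on H1 to H4 was 0.983, 1.23, 1.15 and 0.913, and on L1, L3 and L4 it was 1.04, 1.19 and 1.39. The lowest 2 values came from high gainer arrays and the highest from L4, with the rest interleaved. Btg2 averaged 1.07 ± 0.145 (SD, n = 4) in high gainers and 1.21 ± 0.177 (SD, n = 3) in low gainers, a log2 difference of -0.19 with a 95% interval of -0.63 to 0.26 (adjusted p = 0.909).

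Ier2 encodes a small nuclear protein induced early by growth factors. It read 1.68, 1.18, 1.52 and 1.54 on H1 to H4 and 1.52, 1.66 and 1.16 on L1, L3 and L4, so each group held 1 low array and the rest lay together. The log2 difference was 0.02 with a 95% interval of -0.47 to 0.52, from means of 1.48 ± 0.215 (SD, n = 4) and 1.45 ± 0.259 (SD, n = 3) (adjusted p = 0.990).

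Arc encodes a cytoskeletal protein made at active synapses, where it promotes removal of AMPA receptors. Its values of 1.71, 1.54, 1.40 and 1.44 on H1 to H4 and of 1.34, 1.35 and 1.71 on L1, L3 and L4 reached the same upper limit in both pools. The residual SD of Arc between arrays stood at the 4.06th percentile of all tested probes, and the log2 difference was 0.04 with a 95% interval of -0.36 to 0.45. The means were 1.52 ± 0.139 (SD, n = 4) in high gainers and 1.47 ± 0.210 (SD, n = 3) in low gainers (adjusted p = 0.982).

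Dusp1 encodes a phosphatase that switches off the MAP kinases, and so acts as feedback on the signals that induce it. Its intensity was 8.72, 7.24, 8.52 and 8.70 on H1 to H4, and 9.47, 7.96 and 6.47 on L1, L3 and L4. The low gainer arrays again held both extremes. Dusp1 averaged 8.30 ± 0.711 (SD, n = 4) in high gainers and 7.97 ± 1.498 (SD, n = 3) in low gainers, and its log2 difference was 0.09 with a 95% interval of -0.27 to 0.45 (adjusted p = 0.951).

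**Figure D2:**
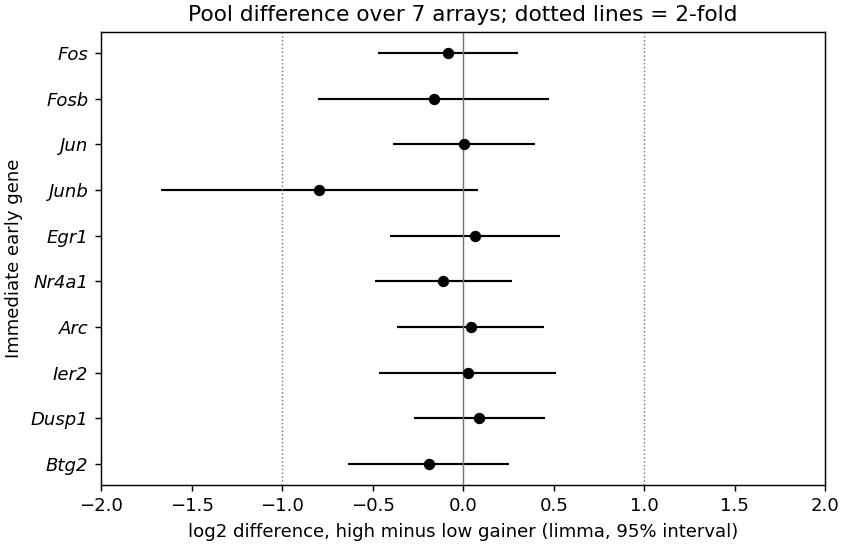
Log2 difference between the pools, high minus low gainers, for each of the 10 immediate early genes over 7 arrays. Points are limma estimates, bars are 95% intervals over arrays, and dotted lines mark 2-fold. Every bar crosses 0, and the bar of Junb, from -1.67 to 0.08, is the only one that reaches past 2-fold.

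The width of the intervals shows which sizes of difference these arrays could have missed. For 7 genes, Fos, Jun, Egr1, Nr4a1, Arc, Ier2 and Dusp1, the 95% interval lay inside 1.5-fold in either direction, as it did for 33.1% of all tested probes. For 9 genes, all but Junb, it lay inside 2-fold, beside 88.1% of all probes. The narrower limit depended on the arrays used. With 1 array left out, 4 to 6 genes lay inside 1.5-fold, beside 18.3% to 31.1% of all probes. The fewest were those without L1, when Fos, Egr1 and Ier2 no longer lay inside. With arrays of the same number as a replicate block there were 3, Fos, Jun and Dusp1, beside 14.9% of all probes. Inside 2-fold there were 8 genes without H3, beside 82.6% of all probes. There were 9 in each other fit that left out 1 array or used the block, beside 76.9% to 84.2%. The median residual SD was 0.21 on the log2 scale for the 10 genes and 0.28 for all probes. These limits hold for the 2 pools on these arrays. In a pool of whole hypothalamus, fewer cells with a transcript and less transcript per cell cannot be told apart, and a difference in a small nucleus would be diluted by the rest of the tissue.

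Arrays of the same pool were compared with the 2 pools, and the counts for these genes lay near the shares over all probes. The range over the 4 high gainer arrays exceeded the pool difference in 10 of 10 genes, beside 88.4% of all probes. The range over the 3 low gainer arrays exceeded it in 9 of 10, beside 93.4% of all probes, and Nr4a1 was the exception. The 3 low gainer arrays were spread more widely than the 4 high gainer arrays in 7 of the 10 genes and in 64.9% of all probes.

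L1 and L4, which carry the same RNA, differed in both directions. On L4 the log2 intensity was higher than on L1 by 0.96 for Egr1, 0.34 for Btg2, 0.33 for Fos, 0.25 for Arc and 0.05 for Nr4a1. For the other 5 genes L4 was lower, with log2 differences of -0.75 for Junb, -0.53 for Dusp1, -0.50 for Ier2, -0.45 for Jun and -0.24 for Fosb. The size of the L4 to L1 difference exceeded that of the pool difference in 8 of 10 genes and in 77.2% of all probes.

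No array was high or low across all 10 genes. Set against each gene's mean over the 7 arrays, the median log2 deviation of the 10 genes was 0.05 on H1, -0.10 on H2, 0.05 on H3 and -0.06 on H4. It was 0.06 on L1, 0.11 on L3 and 0.02 on L4. H2 lay below the mean in 8 of the 10 genes and L3 above it in 7. The largest single deviations were those of Junb, at 1.51 on L3 and -0.89 on H2, followed by Fosb at -0.60 on H4. In the deposited intensities, H1 gave the highest value of Nr4a1, Arc and Ier2. There L4 gave the highest of Fos, Egr1 and Btg2 and the lowest of Jun, Ier2 and Dusp1. In the normalized deviations L3 instead held the highest of Fos (0.19), Ier2 (0.30) and Btg2 (0.23).

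**Figure D3:**
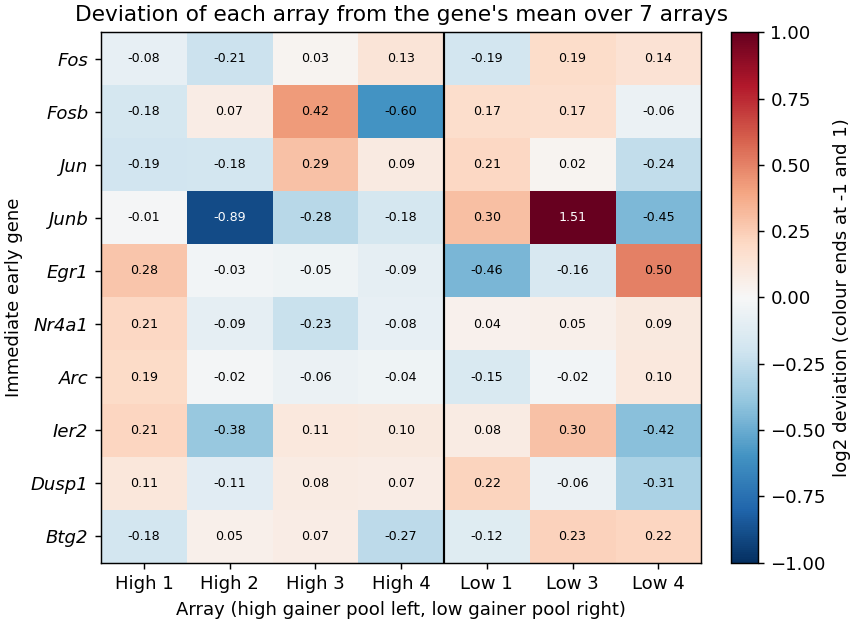
Log2 deviation of each of the 10 immediate early genes from its own mean over 7 arrays, as a colour map with the value in each cell, after quantile normalization. Rows are genes, columns are arrays, red is above and blue below the mean, and the colour scale ends at -1 and 1. Every array has genes on both sides of 0, and the strongest colours are those of Junb, at 1.51 on L3 and -0.89 on H2.

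On L2, 4 of the 10 genes had a value, Fos, Fosb, Egr1 and Dusp1, or 40% beside 48.6% of the probes naming 1 gene that had a value on all 7 other arrays. Egr1 read 53.6 on L2, which is 14.0-fold its mean over the other arrays. Fosb read 1.499, above each of the other 7 values. Fos read 0.375 and Dusp1 0.241, and the mean Dusp1 intensity of the other arrays was 33.8-fold that value. L2 therefore stood apart upward in 2 of these genes and downward in the other 2. With L2 included, the log2 difference was -0.94 for Fosb, -0.88 for Egr1, 0.49 for Fos and 1.22 for Dusp1, and none passed the test.

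The wider list of immediate early genes gave the same count of calls. Of 70 genes on it, 63 had a probe, and 34 had a value on all 7 arrays and were tested by limma. None was called in either direction, beside 0.0269% of all probes, and the smallest adjusted p was 0.756. At an unadjusted p under 0.05 there was 1 gene of the 34, Cebpb, beside 6.48% of all probes. The log2 difference was above 0 in 22 of the 34 and below 0 in 12, with a median of 0.05, where 49.6% of all probes lay above 0. The 95% interval lay inside 2-fold for 32 of the 34, all but Cebpb and Egr4, beside 88.1% of all probes.

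Among relatives of the 10 genes, Egr4, a zinc finger factor of the Egr family, read 6.90, 5.17, 7.31 and 7.06 on H1 to H4 and 7.11, 4.41 and 3.25 on L1, L3 and L4. Its log2 difference was 0.50 with a 95% interval of -0.00 to 1.01 (adjusted p = 0.756). Nr4a3, a nuclear receptor related to Nr4a1, had values of 6.14, 8.44, 8.98 and 6.98 against 10.7, 5.55 and 5.48, a log2 difference of 0.15 (adjusted p = 0.940). Both genes shared a pattern in which L1 lay with or above the high gainer arrays, apart from L3 and L4. With 1 array left out, Nr4a3 ranged from -0.02 without L3 to 0.47 without L1. Nr4a2, needed for dopamine neurons, had a log2 difference of 0.07 (adjusted p = 0.981), and it ranged from -0.14 without H1 to 0.25 without H3. Fosl2, a Fos relative, read 0.229 to 0.288 on the high gainer arrays and 0.413, 0.219 and 0.334 on L1, L3 and L4, and its log2 difference was -0.32 (adjusted p = 0.871), or -0.55 without L3 and -0.14 without L1.

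Fosl1, Jund, Atf3, Egr2, Egr3 and Npas4 lacked a value on at least 1 of the 7 arrays and were left out of the fit above. Fosl1 had a value on 4 high and 2 low gainer arrays, Jund on 3 high and 0 low, Atf3 on 3 and 3, Egr2 on 3 and 2, and Egr3 on 1 and 1. Npas4, a factor induced selectively by calcium entry in neurons, had a value on none of the 7. In a fit that kept probes with missing values, the log2 difference was -0.51 for Fosl1, -0.72 for Atf3 and 0.15 for Egr2, with adjusted p-values of 0.941, 0.925 and 0.988. The 3 low gainer values of Atf3 lay above its 3 high gainer values, an order seen in 4.59% of the probes in that fit.

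The wider list's smallest p-values above 0 belonged to Cebpb, Egr4, Ier5 and Cebpd. Cebpb, a leucine zipper factor of the C/EBP family, read 9.55, 9.90, 12.9 and 13.0 on H1 to H4 and 12.8, 7.37 and 5.07 on L1, L3 and L4. Its log2 difference was 0.54 with a 95% interval of 0.00 to 1.08 (adjusted p = 0.756). Cebpd, of the same family, read 2.61, 1.88, 2.30 and 2.26 against 2.77, 1.41 and 1.21, a log2 difference of 0.41 (adjusted p = 0.822). Ier5, an early growth factor response gene, had a log2 difference of 0.31 (adjusted p = 0.793). In all 4 genes L3 and L4 lay below the 4 high gainer arrays while L1 lay among or above them. Without L1 the log2 difference was 0.90 for Cebpb, 0.81 for Egr4, 0.78 for Cebpd and 0.47 for Ier5. Of the 34 genes, Cebpb alone was then called (adjusted p = 0.0431), in a fit that called 1.52% of all probes. Without L4 the Cebpb difference was 0.24 and its adjusted p 0.762. Another Cebpb probe had a value on 3 high and 1 low gainer arrays and was not tested.

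On the side below 0, the smallest p-values belonged to Errfi1, Fosl2, Klf6 and Gadd45b. Errfi1, a feedback inhibitor of the EGF receptor, had a log2 difference of -0.31 (adjusted p = 0.858). Klf6, a zinc finger factor, had one of -0.30 (adjusted p = 0.886), and Gadd45b, a stress-induced regulator of demethylation and kinase signalling, one of -0.25 (adjusted p = 0.901). None of these 3 passed the test. All moved with single arrays. Errfi1 was -0.57 without L1 and -0.03 without L4, Klf6 was -0.58 without L3 and -0.06 without L4, and Gadd45b was -0.35 without H1 and -0.16 without L4.

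**Figure D4:**
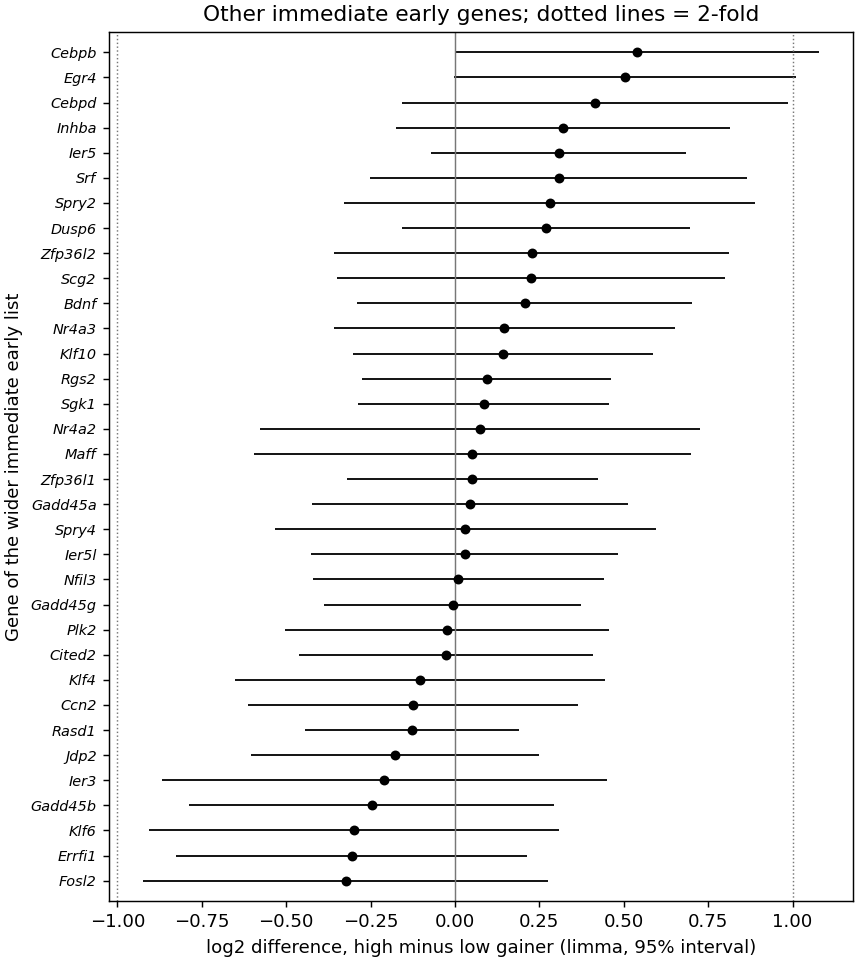
Log2 difference between the pools, high minus low gainers, for the 34 tested genes of the wider list of immediate early genes. Points are limma estimates over 7 arrays and bars are 95% intervals. Estimates lie above 0 in 22 genes and below 0 in 12, and the bars of Cebpb and Egr4 alone reach past 2-fold.

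Upstream of these genes, the kinases and factors that carry calcium and growth factor signals to their promoters were represented by 24 of 40 listed genes, with 13 probes of 12 genes tested. None was called by limma, beside 0.0269% of all probes, and 1 of the 13 passed an unadjusted p under 0.05, beside 6.48% of all. The log2 difference was above 0 at 10 probes and below at 3, with a median of 0.14, where 49.6% of all probes lay above 0. Mapk10, the neuronal Jun kinase, read 13.8, 10.2, 13.3 and 13.2 on H1 to H4 and 12.7, 8.82 and 6.99 on L1, L3 and L4 at 1 probe, a log2 difference of 0.47 (adjusted p = 0.756). At its second probe the difference was 0.26 (adjusted p = 0.793). Creb1, which encodes CREB itself, had a log2 difference of 0.17 (adjusted p = 0.914). Camkk2, the kinase that activates calmodulin kinases, had 0.20 (adjusted p = 0.873), and Camk4, one of its targets, had 0.22 (adjusted p = 0.923). Below 0 stood Atf4 at -0.17, Atf1 at -0.23 and Map2k2 at -0.13, with adjusted p-values of 0.892, 0.905 and 0.940. These values also rested on single arrays, and none was called when 1 was left out. Mapk10 at its first probe ranged from 0.28 without L4 to 0.70 without L1, and at its second from 0.15 without L3 to 0.36 without L1. Camkk2 was 0.02 without L3 and 0.37 without L1, Camk4 was 0.07 without L3 and 0.43 without L4, and Creb1 was 0.09 without L3 and 0.26 without L4. Atf4 ranged from -0.24 without H2 to -0.11 without H4, Atf1 from -0.42 without L1 to -0.10 without L4, and Map2k2 from -0.29 without L1 to 0.05 without L3.

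Glucocorticoids rise with handling stress, and a list of genes that respond to them or take part in their action was read for comparison. Errfi1, Sgk1 and Per1 stand on this list and on the wider list of immediate early genes. Errfi1 had the log2 difference of -0.31 given above. Of 14 listed genes 10 had a probe, and 7 probes of 6 genes were tested. Limma called none, beside 0.0269% of all probes, and 1 of the 7 passed an unadjusted p under 0.05, beside 6.48% of all. Mt1, a metallothionein, had the smallest p-value at 1 probe, with a log2 difference of -0.50 and a 95% interval of -0.88 to -0.11 (unadjusted p = 0.0145, adjusted p = 0.750). That probe read 11.6, 11.6, 11.0 and 12.8 on H1 to H4 and 12.8, 23.0 and 16.2 on L1, L3 and L4, so H4 and L1 were level in deposited intensity. After normalization every low gainer array lay above every high gainer array, as in 2.7% of all tested probes. Its second probe had a difference of -0.18 (adjusted p = 0.866). Nr3c1, the glucocorticoid receptor, had a log2 difference of 0.49 at a dim probe (adjusted p = 0.858). Tsc22d3 and Sgk1, classic targets of the receptor, had differences of 0.32 and 0.09, with adjusted p-values of 0.881 and 0.955. Hsd11b1, the enzyme that regenerates active glucocorticoid, had 0.21 (adjusted p = 0.858). With 1 array left out, the first Mt1 probe ranged from -0.68 without L1 to -0.31 without L3, and the second from -0.27 without H2 to -0.11 without L3. Nr3c1 was 0.20 without L1 and 0.90 without L3, and Hsd11b1 was 0.09 without L4 and 0.36 without L1. Tsc22d3 changed sign, from -0.09 without L3 to 0.63 without L4, as did Sgk1, from -0.03 without L4 to 0.19 without H2. None was called.

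The tissue itself was checked by markers. Of 16 markers of hypothalamic neurons, 11 were tested and 0 were called, with summed intensities of 45.5 to 53.7 on the high and 50.3 to 62.9 on the low gainer arrays. Their log2 difference was above 0 in 1 and below 0 in 10, with a median of -0.23, where 49.6% of all probes lay above 0. After normalization Hcrt alone was higher on every low gainer array, an order seen in 2.7% of all probes. Pomc had a value on 4 high and 1 low gainer arrays and was not tested. Ghrh and Nkx2-1 had no value on the 7 arrays. The 3 tested anterior pituitary markers, Gh, Cga and Prl, were the 3 called probes of the whole comparison, and all were higher in high gainers. The 9 pituitary markers with a probe summed to 10.2 to 11.8 on the high and 1.72 to 2.70 on the low gainer arrays, with Ghrhr and Pitx1 at no value. In these sums Gh read 4.75 to 6.79 and 0.410 to 0.585, Prl 1.97 to 2.48 and 0.146 to 0.531, and Cga 1.24 to 1.51 and 0.106 to 0.296. Lhb (0.339 to 0.416 and 0.364 to 0.366) and Lhx3 (0.540 to 1.46 and 0.515 to 1.34) overlapped where they had a value. Tbx19 had a value on 2 high and 0 low gainer arrays, and Tshb on 1 and 0. Summed oligodendrocyte markers ran from 57.0 to 90.2 on the high and from 17.5 to 56.8 on the low gainer arrays, with 0 of 6 called. In these sums Mbp alone read 42.1 to 66.7 and 9.68 to 36.1. Mbp and Mag were higher on every high gainer array than on every low one, an order seen in 2.07% of all probes. Cnp, Trf, Cldn11 and Mog overlapped between the pools. Red cell markers ran from 8.47 to 14.5 and from 17.6 to 36.6, with 0 of 2 called. Of these Hba-a1 alone read 8.11 to 13.9 and 17.0 to 35.8. It was higher on every low gainer array, as were 2.7% of all probes, whereas Alas2 overlapped. The summed markers of cortex, hippocampus and striatum (20.4 to 26.0 and 18.7 to 22.8), astrocytes (45.6 to 56.5 and 41.5 to 53.0), microglia (13.3 to 16.3 and 12.8 to 15.3) and endothelium (9.48 to 12.2 and 9.37 to 12.5) overlapped between the pools, with no marker called. In the astrocyte sums Aldoc alone read 41.5 to 52.1 and 34.9 to 47.8. Neurod6, of the cortex list, read 0.696 to 0.846 and 1.04 to 1.46, higher on every low gainer array (limma, unadjusted p = 0.00686, adjusted p = 0.750). Drd2, of the same list, read 1.24 to 1.68 and 0.788 to 1.23, higher on every high gainer array. These orders were seen in 2.7% and 2.07% of all probes. Tbr1, Drd1, Ppp1r1b and Wfs1 overlapped. At an unadjusted p under 0.05, which 6.48% of all tested probes reached, stood 3 pituitary, 2 hypothalamic, 2 oligodendrocyte, 1 red cell and 1 cortex, hippocampus or striatum marker. The 10 immediate early genes summed to 25.6 to 29.3 on the high and 27.8 to 28.9 on the low gainer arrays. Whether cell makeup bears on their values was not tested.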

How the data were processed

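Per the labels, total RNA of 1 pool of 20 mice per group was transcribed into DIG-labelled cRNA and read by chemiluminescence on 1-colour Applied Biosystems mouse arrays, with 4 arrays per pool. The deposited values are probe intensities, which the authors quantile-normalized per the study's methods. Some cells are empty. The filter behind them is not stated, and an empty cell is taken as no value. Genome build and probe coordinates were not given in the sources used here. Of 33012 probes, 14411 name 1 gene, 247 several and 18354 none, and 14402 matched RefSeq (GRCm38.p6) by gene ID, with 0 symbols changed. The array annotation can be old.

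Intensities of the 11169 probes present on each of 7 arrays (L2 apart) were quantile-normalized again, put on the log2 scale and fitted with limma 3.58.1 in R 4.3.3 (lmFit, eBayes with trend, two-sided), with Benjamini-Hochberg adjustment over all of them and calls at 0.05. This leaves out any probe with an empty cell on 1 of them. Means ± SD are of deposited intensities. Alternatives were L2 included, other normalizations, the brightest 50% of probes, missing values left missing, a pseudocount of 0.186, a replicate block and no trend. Further alternatives were array weights, an ordinary t-test on the same 7 arrays in place of limma, and leaving out each array. The scripts were tested on simulated data. The 10 genes, 3 pathway lists and 8 marker lists were chosen with earlier results of these data known. Genes named are the 10, relatives in the AP-1, Egr and Nr4a families, and per pathway list up to 4 per direction with the smallest p. The number of arrays and the single pool per group limit the precision.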

Additional observations from a re-analysis of the deposited data

Results flagged for a closer look

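In 14 sets of 4 arrays of 1 pool, the array at one end was compared with its nearest neighbour relative to the whole range, which is Dixon's ratio. Its 95% limit, which chance passes in about 1 of 20 sets, was passed by 2 of the 10 high gainer sets and by 2 low gainer sets. The share of all tested probes that pass this limit is not given here, so these counts are not read as a trait of these genes. Both low gainer sets passed through L2, the array that already stood apart from the rest, so they hold no further information on it. Egr1 in low gainers had a ratio of 0.949, from 53.6 on L2, and Fosb in low gainers had 0.956, from 1.499 on L2. Egr1 in high gainers had a ratio of 0.851, from 4.57 on H1, and Dusp1 in high gainers had 0.866, from 7.24 on H2. Without H1 the log2 difference of Egr1 was -0.02, and without H2 that of Dusp1 was 0.14.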

How the results depend on the processing

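None of the 10 genes was called under the alternatives in which it could be fitted, which were 18 for Fos, Egr1 and Dusp1, 17 for Fosb, Jun and Nr4a1 and 16 for the others. All 8 arrays left 4 of the genes and the brightest 50% left 5. The smallest adjusted p was 0.348, for Junb without L4. In that limma fit Junb also met an unadjusted p under 0.01 with 1.5-fold, as the only 1 of the 10. Of 11228 probes, 226 met these thresholds upward and 72 downward. With array weights Junb had an unadjusted p of 0.0144 by limma, where 1177 of 11169 probes lay under 0.05. Of 169 values of single genes under these alternatives, 151 kept the side of 0. Btg2 and Junb kept it in their 16 and Nr4a1 in its 17, with Junb between -1.22 and -0.30. The log2 difference was -0.88 for Egr1 and 0.49 for Fos with all 8 arrays, -0.0620 for Ier2 with array weights, and for Jun -7.92e-05 without further normalization and -0.0140 with median centring. Leaving out 1 array at a time gave -0.0197 to 0.11 for Arc, -0.0413 to 0.22 for Dusp1, -0.14 to 0.34 for Egr1, -0.33 to 0.0136 for Fosb, -0.18 to 0.17 for Ier2 and -0.11 to 0.11 for Jun. Calls over all probes numbered 1 with all 8 arrays, 1 among the brightest 50%, 9 with the replicate block, 0 by the methods' t-test (477 at an unadjusted p under 0.05), and 2 to 171 when an array was left out, the most without L1. Calls in the wider list were 0 to 1 when an array was left out, the 1 being Cebpb without L1. The causes were not tested. Deviations of arrays of the same number in the 2 pools correlated at -0.20, 0.13 and -0.14. For arrays of different numbers the correlations ran from -0.52 (H3 with L4) to 0.45 (H3 with L1). Whether the numbers mark a pairing of the pools was not tested. With the replicate block the median difference of the 10 genes was 0.02, and none of them or of the wider list was called. Fosb and Junb, whose intensities lie near the lower end of the deposited values, and the 2 pools without repeats of animals limit what can be read.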
